A study of Drosophila melanogaster with 4 samples.

Results

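The chitin, peritrophin and chitinase-like genes were 55 genes of Drosophila melanogaster, taken by gene symbol from the 11981 genes that had a probe set naming 1 gene. They comprised 3 genes of chitin synthesis and organisation (kkv, knk and mmy), 5 chitin deacetylases (serp, verm and the Cda genes), 12 chitin-binding obstructor and peritrophin proteins (the obst- genes, Gasp and the Peritrophin genes), 10 chitinases (Cht genes), 6 Idgf genes and 19 mucin or mucin-related genes (Muc and Mur). They were measured by 64 probe sets. Flies of the Canton-S strain were pooled, and RNA of each pool was hybridised to 1 Affymetrix Drosophila Genome 2.0 array. The 4 pools were 40-day flies fed 100 µM curcumin, a polyphenol of turmeric, 40-day flies without curcumin, young flies (1 to 3 days) fed 100 µM curcumin, and young flies without it. Larvae of all pools were reared on standard medium without a stated additive, and the adult food of the pools without curcumin carried the ethanol vehicle alone. The labels give 30 males and 30 females per pool and name no dissected tissue. For young flies the sample titles give 1 day and the study design 3 days, beside the range of 1 to 3 days. Old flies could have eaten curcumin for longer than young flies, so age and time on curcumin cannot be told apart when its differences at both ages are set side by side.

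Chitin is a polymer of N-acetylglucosamine that stiffens the cuticle of the body wall, the tracheal tubes and the foregut and hindgut, and that forms, with peritrophins and mucins, the peritrophic matrix lining the midgut. It is made at the cell surface by chitin synthases from UDP-N-acetylglucosamine, organised outside the cell by chitin-binding and deacetylating proteins, and cut by chitinases. The Idgf proteins share the chitinase fold but lack the catalytic activity, and were first described as growth factors of imaginal disc cells.

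Values are MAS5 signals, the array maker's summary of a probe set, scaled to a common trimmed mean. Signals under 19.3, the 40th percentile over the arrays, were treated as below a floor, and a gene at the floor or above it on an array is called measured there. A fold against a value below it is a bound, written as at least N-fold. With 1 array per group a difference between a pair of arrays has no replicate check and carries no p-value. Precision is limited throughout by how few arrays there are. Below, some genes are said to have both arrays of 1 age or diet above both others, or not overlapping with them. The share of all genes that did so was not counted. Each probe set has its own probes, so no level of one gene is read against that of another.

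The arrays went against their label in 1 respect. Of 6 ovary markers listed, 5 had values, and osk, bcd, Cp38 and Vm26Aa were below the floor on all 4 arrays. The chorion gene Cp36 read 19.8 and 26.1 in old flies with and without curcumin and was below the floor in young flies. Of the yolk protein genes, Yp1 and Yp2 were above the floor only in old flies with curcumin, at 27.4 and 20.9, and Yp3 read between 43.6 and 57.9 on the 4 arrays. The 4 accessory gland markers with values, which are male, were above the floor on all arrays, with summed signals between 10133 and 20181. The ovary markers and Yp1 and Yp2 were thus at or near the floor, with Yp3 above it, in pools labelled as containing females, and the cause was not tested. All 5 midgut and all 5 hemocyte markers with values were above the floor on every array.

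Of the 55 genes, 30 were measured on all arrays, 8 on some and 17 on none. The share with a signal on at least 1 array was 69.1%, against 83.3% of all genes. The Idgf genes were the most completely detected, with all 6 on every array, whereas 9 of the 19 mucin genes were below the floor throughout. The 17 undetected genes had signals between 0.310 and 17.3. They included the epidermal chitin synthase gene kkv, which read 13.0 and 0.703 in old flies with and without curcumin and 15.9 and 15.3 in young flies with and without it, and for which no difference is given. The others were Cda4, Cda9, obst-F, obst-G, obst-I, obst-J, Cht10, Muc12Ea, Muc18B, Muc30E, Muc4B, Muc68Ca, Muc91C, Muc96D, Mur11Da and Mur89F.

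**Figure D1:**
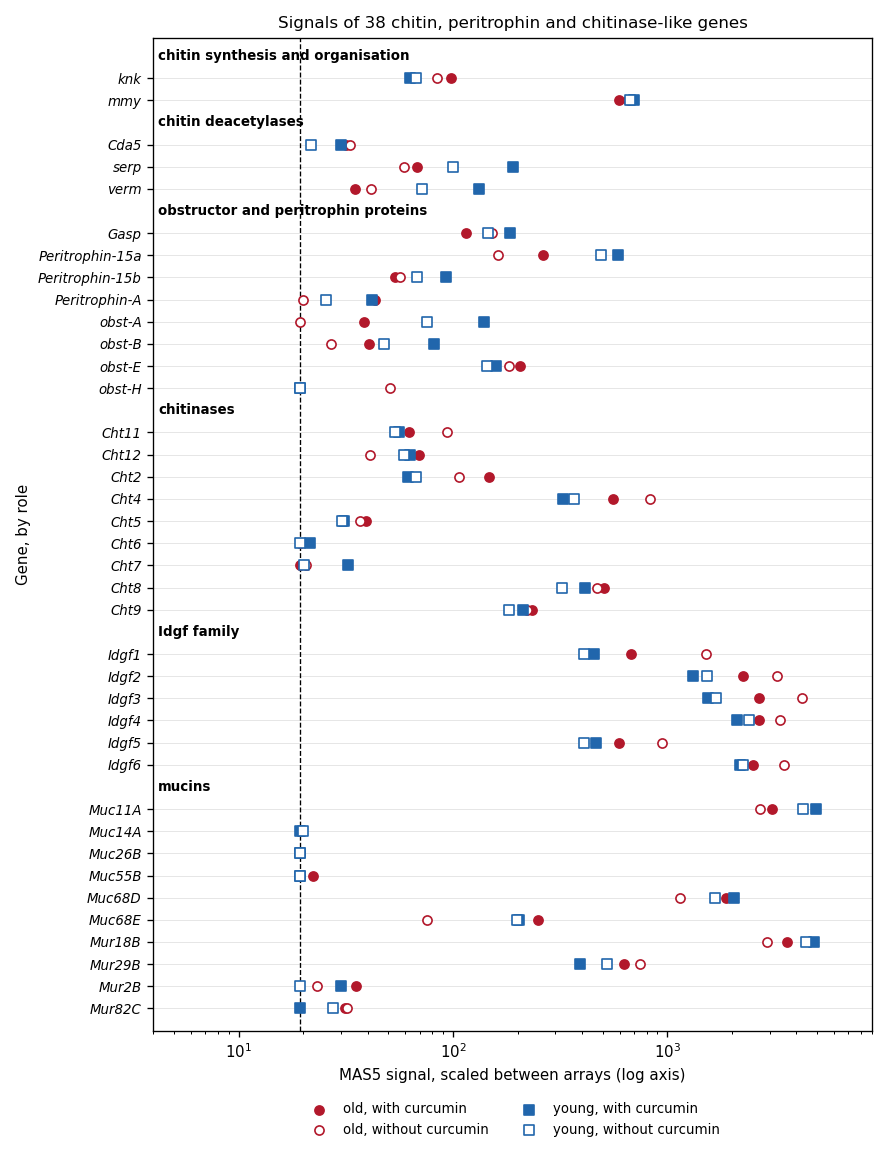
MAS5 signal on a log axis for the 38 genes measured on at least 1 array, 1 row per gene in order of role, with 1 point per array. Values below the floor of 19.3 (dashed line) are drawn on it, and rows are not comparable with each other because each has its own probes. For all 6 Idgf genes the open red circle of old flies without curcumin stands farthest right, and for obst-A both young arrays (squares) stand right of both old ones (circles).

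Between the pools without curcumin, 6 of the 35 measured genes were at least 2-fold higher in old flies and 3 at least 2-fold lower. The higher share was 17.1%, with a background of 4.21% of 9712 genes, and the lower share was 8.57%, with a background of 9.8%. The median log2 difference was 0.27, against -0.02 over all genes. Between the pools with curcumin, 1 of 37 measured genes (2.7%) was at least 2-fold higher in old flies, with a background of 3%, and 5 (13.5%) were lower, with a background of 2.63% of 9748 genes. The median there was 0.15, against -0.005 over all genes. In old flies, curcumin food went with 2 of 38 genes at least 2-fold higher (5.26%, background 5.2%) and 2 at least 2-fold lower (background 1.25%). In young flies, 0 of 35 genes were at least 2-fold apart in either direction, with backgrounds of 0.389% higher and 0.399% lower. The median curcumin difference was 0.16 in young flies, against -0.04 over all genes, and 0.02 in old flies, against -0.02. In all, 14 of the 55 genes differed at least 2-fold between at least 1 pair of arrays. These were 5 obstructor or peritrophin genes, 4 Idgf genes, 2 chitinase genes, 2 chitin deacetylase genes and 1 mucin gene. The share of all genes at least 2-fold apart in any pair was not counted, so this total has no background beside it.

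The age differences of the diets come from separate arrays. They had the same sign for 28 of the 34 genes measured in both, 82.4%, with a background of 72.8% of 9476 genes. None was at least 2-fold higher on both diets (background 1.35%), and obst-A and Peritrophin-15a were at least 2-fold lower on both (background 1.48%).

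When age and diet were fitted additively in limma over 9562 genes, 0 of the 35 genes tested passed a Benjamini-Hochberg adjusted p of 0.05 for age, as did 0% of all genes, and the smallest adjusted p among them was 0.124. At an unadjusted p below 0.05 there were 7 higher and 7 lower with age, with backgrounds of 11.4% and 12% of all genes. For curcumin, the limma model called 0 genes at an adjusted p below 0.05, with a background of 0%, and the smallest adjusted p was 0.83. At an unadjusted p below 0.05, 4 genes were higher with curcumin (Peritrophin-A, obst-A, obst-B and Mur2B; background 1.88%) and 0 lower (background 1.72%). Other limma fits also called 0 of these genes for age and for curcumin. With a robust, intensity-trended prior 15 were at an unadjusted p below 0.05 for age and 5 for curcumin, with backgrounds of 24.2% and 3.6%. With the other factor dropped there were 15 and 1, with backgrounds of 23.6% and 0.356%. With each array centred on its median, limma called 9 of the 35 for age and 982 of 9566 genes in all.

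Both detected genes of chitin synthesis and organisation were under 2-fold apart in each pair. The gene knk encodes an extracellular protein needed for ordered chitin. It read 98.4 in old and 63.3 in young flies with curcumin, and 84.0 in old and 67.4 in young flies without it, log2 differences of 0.64 and 0.32. Both old arrays were above both young ones. The gene mmy encodes the pyrophosphorylase that makes UDP-N-acetylglucosamine. It read 593 in old and 696 in young flies with curcumin and 654 in old and 667 in young flies without it. Its age differences were -0.23 and -0.03.

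The chitin deacetylase genes serp (serpentine) and verm (vermiform), whose proteins are secreted into the tracheal lumen and limit tube length, were lower in old flies and higher with curcumin in young flies. The genes are next to each other among the protein-coding genes of the fly genome. With curcumin, serp read 67.7 in old against 190.2 in young flies, 2.81-fold lower in old flies. Without it, serp read 59.0 in old against 100.1 in young flies, 1.70-fold lower. For verm the signals were 34.9 in old and 132 in young flies with curcumin, 3.79-fold lower, and 41.6 in old and 71.3 in young flies without it, 1.71-fold lower. Both old arrays lay below both young arrays for each gene, and the young array with curcumin was the highest. Curcumin in young flies went with a log2 difference of 0.93 for serp and 0.89 for verm, and in old flies of 0.20 and -0.25. The limma age estimates over both diets were -1.13 (SE 0.25) for serp and -1.35 (SE 0.33) for verm, with adjusted p of 0.153 and 0.158. With a floor at the 60th percentile the age difference of verm was -0.96 with and -0.07 without curcumin. The remaining detected gene of this role, Cda5, read 31.7 in old and 30.2 in young flies with curcumin and 33.2 in old and 21.8 in young flies without it, and was under 2-fold apart in each pair.

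Among the obstructor and peritrophin genes, obst-A, obst-B and Peritrophin-15a were lower in old flies on both diets. The gene obst-A encodes a chitin-binding protein that organises and protects the chitin matrix of the larval cuticle. It read 38.3 in old and 139 in young flies with curcumin, 3.63-fold lower in old flies. Without curcumin obst-A was not measured in old flies and read 75.3 in young flies, at least 3.90-fold lower with age. The old arrays did not overlap with the young ones, and at each age the array with curcumin was the higher. The limma age estimate for obst-A, with the undetected old array set at the floor, was -1.91 (SE 0.18, adjusted p 0.124). Its curcumin estimate was 0.94 (SE 0.18, adjusted p 0.83), from a difference of 0.88 in young flies and a bound of at least 1.99-fold higher in old flies. A floor at the 60th percentile gave -0.14 for the age difference of obst-A without curcumin.

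Of the same family, obst-B read 40.4 in old and 81.2 in young flies with curcumin and 27.0 in old and 47.7 in young flies without it. It was 2.01-fold and 1.77-fold lower in old flies, and 1.5-fold higher with curcumin in old and 1.70-fold higher in young flies. The 2.01-fold difference was under 2-fold without rescaling, with arrays centred on their medians, with a pseudocount, or with a floor at the 60th percentile. The limma age estimate for obst-B was -0.91 (SE 0.18, adjusted p 0.153). Peritrophin-15a belongs to a family of small chitin-binding proteins named for peritrophins of the blowfly Lucilia. It read 264 in old and 586 in young flies with curcumin, 2.22-fold lower, and 162 in old and 488 in young flies without it, 3.01-fold lower. Both old arrays were below both young arrays, and the limma estimate was -1.37 (SE 0.21, adjusted p 0.153). Its neighbour in the genome, Peritrophin-15b, read 53.4 in old and 93.0 in young flies with curcumin and 56.8 in old and 67.8 in young flies without it, 1.74-fold and 1.19-fold lower.

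Peritrophin-A and obst-H were the other members of this role at least 2-fold apart in a pair. Peritrophin-A, a chitin-binding protein gene that lies beside obst-A, read 43.5 in old flies with curcumin and 19.9 in old flies without it, 2.18-fold higher with curcumin. In young flies it read 41.8 with and 25.5 without curcumin, 1.64-fold higher. The arrays with and without curcumin did not overlap. The value of 19.9 stood just above the floor, and the log2 difference in old flies was 0.73 with a pseudocount and 0.996 with quantile normalization. It was not measured with a floor at the 60th percentile. Peritrophin-A had a limma curcumin estimate of 0.92 (SE 0.20, adjusted p 0.83). The gene obst-H was detected on 1 array. It read 51.1 in old flies without curcumin, and was below the floor in old flies with it and on both young arrays. Old flies without curcumin were thus at least 2.65-fold above young flies on the same diet, and old flies with curcumin at least 2.65-fold below old flies without it. This gene entered through the array where it was high. With the floor at the 60th percentile obst-H was not measured on any array.

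Gasp and obst-E were detected on all arrays and were under 2-fold apart in each pair. Gasp, an obstructor family gene of tracheal cuticle, read 115 in old and 184 in young flies with curcumin and 152 in old and 146 in young flies without it. The gene obst-E, which shapes the larval and pupal body through the cuticle, read 206 in old and 159.6 in young flies with curcumin, and 183 in old and 145 in young flies without it. It had a second probe set detected on all arrays, with age differences of 0.52 with and -0.04 without curcumin, against 0.37 and 0.34 for the probe set used.

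In young flies the curcumin differences of the 7 measured obstructor or peritrophin genes ran between 0.14 for obst-E and 0.88 for obst-A on the log2 scale, and those of the 3 measured deacetylases between 0.47 for Cda5 and 0.93 for serp. None of these passed 2-fold, and 43.8% of all genes measured there were above 0. Cuticle markers stood beside them. Of 9 listed epidermal cuticle markers 8 had values, Cpr65Av, TwdlF and Vajk1 were below the floor on all arrays, and the summed signal was 924 in young flies with curcumin and 510 in young flies without it. In old flies the sums were 329 with and 257 without curcumin. With age, 4 of 5 measured cuticle markers were at least 2-fold lower with curcumin and 2 of 4 without it. Cpr66D went the other way. It read 117 and 127 in old flies with and without curcumin, and 73.8 and 82.8 in young flies with and without it. Flight muscle markers had sums of 6110 in young flies with and 2995 in young flies without curcumin, and of 1330 and 634 in old flies. The part of either in these differences was not tested. In RNA of pooled flies, fewer cells of a type and less RNA per cell cannot be told apart.

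Of the chitinase genes, Cht4 was at least 2-fold higher in old flies without curcumin and Cht2 with it, and the others were under 2-fold apart with age. Without curcumin 7 of 8 measured chitinase genes had a difference above 0, as small as 0.03 for Cht7, against 48.9% of all genes. With curcumin 7 of 9 did, against 49.6%. Cht4, an enzyme of the glycoside hydrolase family that cuts chitin, read 828 in old and 368 in young flies without curcumin, 2.25-fold higher, and 559 in old and 326 in young flies with it, 1.71-fold higher. Cht2 read 147 in old and 61.6 in young flies with curcumin, 2.39-fold higher, and 107 in old and 67.1 in young flies without it, 1.59-fold higher. For Cht4 and Cht2 both old arrays were above both young arrays. The limma age estimates were 0.97 (SE 0.20) for Cht4 and 0.96 (SE 0.23) for Cht2, each with an adjusted p of 0.153.

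Cht8, Cht12, Cht4 and Cht9 follow one another in the genome with no other protein-coding gene between them, and their age differences varied. Without curcumin the log2 differences were 0.54 for Cht8, -0.52 for Cht12, 1.17 for Cht4 and 0.29 for Cht9. With curcumin they were 0.30, 0.15, 0.78 and 0.14 in the same order. Cht12 read 69.3 with and 41.0 without curcumin in old flies, and Cht11 read 62.1 with and 94.2 without it, differences of 0.76 and -0.60. Cht5, a chitinase of moulting cuticle, read between 30.4 and 39.2 on the 4 arrays. Cht7, which is near the floor, was above it on 3 arrays and highest in young flies with curcumin, at 32.4. Cht6 had 3 probe sets, of which 1 passed the floor, on 2 arrays, with a highest signal of 21.6.

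All 6 Idgf genes were higher in old than in young flies on both diets and lower with curcumin in old flies. These signs held under the 3 other scalings. The mean over probe sets bears on Idgf3 alone, and the floor and pseudocount settings could not change the signs of the 6. The median age difference was 1.15 without and 0.47 with curcumin, against -0.02 and -0.005 over all genes, and the median curcumin difference was -0.59 in old and -0.09 in young flies. Without curcumin 4 of the 6 were at least 2-fold higher in old flies (background 4.21%), and with curcumin 0 of 6 (background 3%). Above 0 with age were 48.9% of all genes without and 49.6% with curcumin. For curcumin in old flies 48.3% of all genes were above 0. The comparisons without curcumin and within old flies share the old array without curcumin. That array was the highest of the 4 for all 6 genes, as it was for 37.9% of the 8676 genes detected on all arrays.

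Idgf1 had the largest age difference of the family without curcumin. It read 1516 in old and 409.0 in young flies without curcumin, 3.71-fold higher. With curcumin it read 680.4 in old against 457 in young flies, 1.49-fold higher. Both old arrays were above both young arrays, and the old array with curcumin was 2.23-fold lower than the old array without it. The limma age estimate for Idgf1 was 1.23 (SE 0.37, adjusted p 0.183). The age difference of Idgf1 with curcumin minus that without it was -1.31, and with 1 array per group this contrast could not be tested.

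Idgf2 and Idgf3 follow Idgf1 in the genome. Idgf2 read 3237 in old and 1525 in young flies without curcumin, 2.12-fold higher, and 2267 in old and 1323 in young flies with it, 1.71-fold higher. Idgf3 read 4250.1 in old and 1686 in young flies without curcumin, 2.52-fold higher, and 2675 in old and 1552 in young flies with it, 1.72-fold higher. For Idgf1, Idgf2 and Idgf3 alike, old arrays did not overlap with young arrays, an order whose share among all genes was not counted. The limma age estimates were 0.93 (SE 0.19) for Idgf2 and 1.06 (SE 0.22) for Idgf3, both with an adjusted p of 0.153. A second probe set of Idgf3 read 80.4 and 125 in old flies with and without curcumin and 20.2 and 51.1 in young flies with and without it. By that probe set the age difference was 1.99 with and 1.29 without curcumin, and the curcumin difference in young flies was -1.34, against -0.12 by the probe set used.

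Idgf5 read 948 in old and 409 in young flies without curcumin, 2.32-fold higher, and 598 in old and 466 in young flies with it, 1.28-fold higher. Idgf6 read 3490.5 in old and 2259 in young flies without curcumin and 2507 in old and 2178 in young flies with it, 1.55-fold and 1.15-fold higher. Idgf4 read 3368 in old and 2416 in young flies without curcumin and 2686 in old and 2124 in young flies with it, 1.39-fold and 1.26-fold higher. A probe set that names both Idgf4 and CG4982 was below the floor on all arrays and was not used. In old flies the curcumin differences of these genes were -0.67 for Idgf5, -0.48 for Idgf6 and -0.33 for Idgf4.

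Idgf proteins are known to be made in the fat body and by hemocytes, the fly's blood cells. All 5 hemocyte markers listed (Hml, NimC1, crq, eater and Pxn) were measured on every array, and their summed signal was 1723 in old and 729 in young flies without curcumin and 1314 in old and 691 in young flies with it. Without curcumin 4 of 5 were at least 2-fold higher in old flies, with curcumin 1 of 5, and in old flies 0 of 5 were 2-fold apart with curcumin. The 6 fat body markers, of which Fbp1 was below the floor throughout, summed to 4318 in old and 6832 in young flies without curcumin and 5649 in old and 6727 in young flies with it. Most of each sum was apolpp, at 4055 in old and 5681 in young flies without curcumin and 4947 and 5321 with it. Without curcumin 1 of 3 measured fat body markers was at least 2-fold lower in old flies, and with curcumin 1 of 5. The part of hemocytes or fat body in the Idgf differences was not tested.

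**Figure D2:**
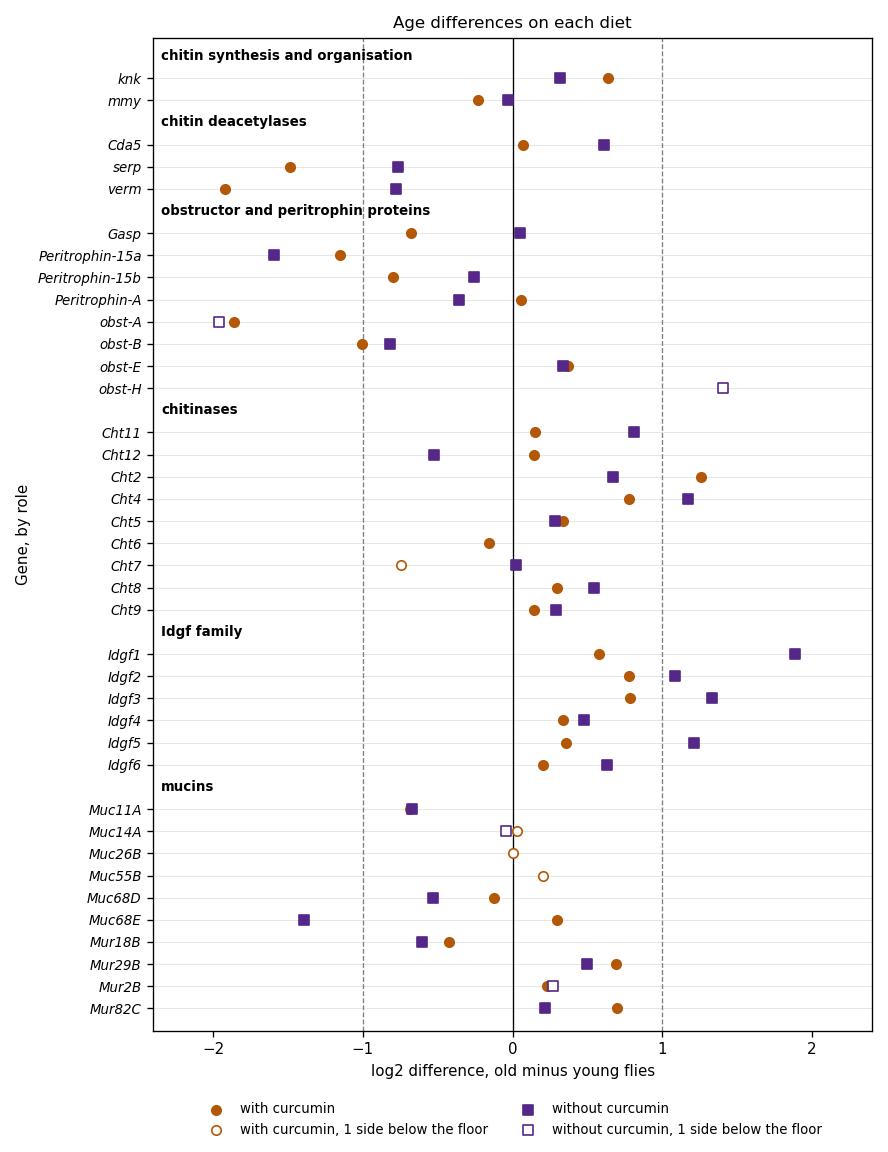
Log2 difference of old minus young flies for the 38 genes, with curcumin (circles) and without it (squares), 1 row per gene in order of role. Open symbols have 1 side below the floor and dashed lines mark 2-fold. The 6 Idgf genes lie right of 0 on both diets, from 0.20 for Idgf6 with curcumin to 1.89 for Idgf1 without it, and serp, verm, obst-A, obst-B and Peritrophin-15a lie left of 0 on both.

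Mucins are heavily glycosylated proteins rich in serine and threonine that coat epithelia, and several of the fly's Muc and Mur genes are named only from such sequence. Muc68E was the 1 mucin gene at least 2-fold apart in a pair. It read 75.6 in old and 198 in young flies without curcumin, 2.62-fold lower, and 250.2 in old and 203 in young flies with it, 1.23-fold higher. The old array with curcumin was 3.31-fold above the old array without it, and the young arrays differed 1.02-fold. The low value of old flies without curcumin thus stood apart from the other 3 arrays. Muc68D read 1146.5 in old and 1661 in young flies without curcumin and 1881 in old and 2051 in young flies with it, 1.45-fold and 1.09-fold lower.

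Muc11A and Mur18B were lower in old flies on both diets by less than 2-fold. Mur18B read 3620.0 in old and 4860.0 in young flies with curcumin and 2917 in old and 4441 in young flies without it. Muc11A read 3066 in old and 4941 in young flies with curcumin and 2701 in old and 4302 in young flies without it. The limma age estimates were -0.52 (SE 0.18, adjusted p 0.205) for Mur18B and -0.68 (SE 0.18, adjusted p 0.166) for Muc11A. Mur29B went the other way, with 629 in old and 390.3 in young flies with curcumin and 744 in old and 526 in young flies without it, and a limma estimate of 0.59 (SE 0.18, adjusted p 0.185). Mur2B read 35.3 in old and 30.2 in young flies with curcumin, and 23.2 in old flies and below the floor in young flies without it, and its limma curcumin estimate, with the unmeasured young array set at the floor, was 0.62 (SE 0.18, adjusted p 0.83). Without a floor its curcumin difference in young flies was 1.24. Mur82C, Muc14A, Muc26B and Muc55B were near the floor, with no signal above 31.9.

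Midgut markers moved with age and diet in the same comparisons. Of 8 listed markers 5 had values, and their summed signal was 8557 in old and 17612 in young flies without curcumin and 15121 in old and 19443 in young flies with it. Without curcumin 4 of the 5 were at least 2-fold lower in old flies, with curcumin 2 of 5, and in old flies 3 of 5 were at least 2-fold higher with curcumin. Their part in the differences of Muc68E and of the peritrophins was not tested.

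**Figure D3:**
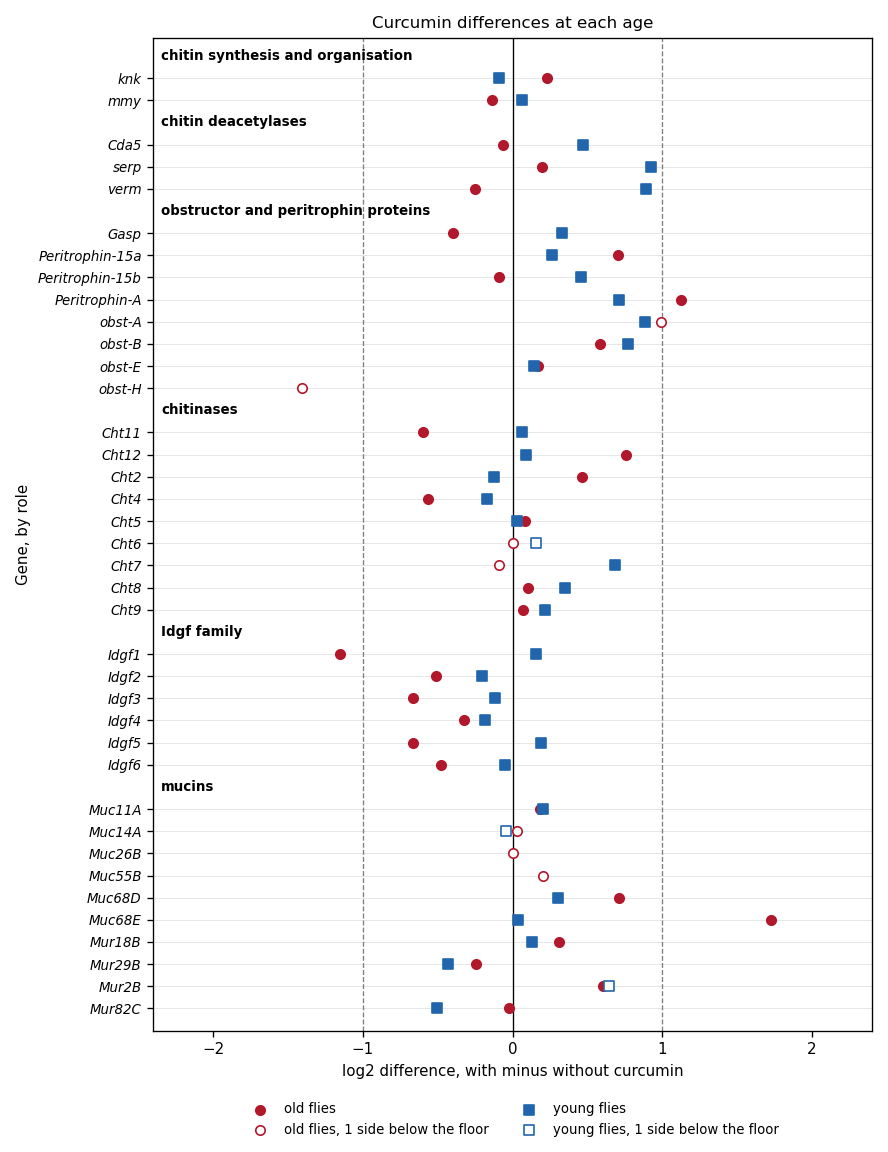
Log2 difference of flies with minus flies without curcumin for the 38 genes, in old flies (circles) and young flies (squares), 1 row per gene in order of role. Open symbols have 1 side below the floor and dashed lines mark 2-fold. No square reaches 2-fold, and all 6 Idgf circles lie left of 0, from -0.33 for Idgf4 to -1.16 for Idgf1, while Muc68E has the circle farthest right at 1.73.

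Of 16 other genes listed for chitin precursor synthesis, chitin assembly and the breakdown of chitin fragments, 13 had values and 12 were measured on at least 1 array. Without curcumin 1 of 12 measured was at least 2-fold higher in old flies and 1 lower, and with curcumin 1 of 11 was higher and 0 lower. The backgrounds were 4.21% higher and 9.8% lower without curcumin, and 3% and 2.63% with it. Chs2, the chitin synthase of the gut, read 46.9 in old and 130.0 in young flies without curcumin, 2.77-fold lower, and 83.7 in old and 101 in young flies with it, 1.20-fold lower. In old flies it was 1.78-fold higher with curcumin. The hexosaminidase gene fdl (fused lobes), which trims N-glycans, read 405 in old and 174 in young flies without curcumin and 309 in old and 124 in young flies with it, 2.33-fold and 2.50-fold higher. Hexo2, encoding a hexosaminidase, read 1469 in old and 978 in young flies with curcumin and 2141 in old and 1325 in young flies without it, 1.5-fold and 1.62-fold higher. The precursor enzyme genes Gfat1, Gfat2 and Gnpnat had age differences between -0.48 and 0.14 on both diets. No listed gene was at least 2-fold apart with curcumin at either age.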

How the data were processed

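The authors' deposited values were log2 signals per probe set. The submitters' processing notes name MAS5, whose version and settings are not given in the sources used here. Values ran from -4.67 to 13.4. Signals were back-transformed, scaled to a common 2% trimmed mean (factors between 0.975 and 1.06), floored at the 40th percentile (19.3) and put back on the log2 scale. Per array, 58.6% to 60.8% of 18769 probe sets reached the floor. Probe sets naming 1 gene (13646, of which 13543 matched by gene number) took current symbols from RefSeq, Release 6, and the brightest probe set by mean log2 signal represented its gene. Groups came from the labels. Pairs of arrays were compared over genes reaching the floor on either array. limma 3.58.1 (R 4.3.3) fitted age and curcumin additively over genes reaching the floor on 2 arrays or more, with 1 residual degree of freedom. It was also run on simulated data with additive age changes. Those data held no dependence of age on diet, so they cannot show how such dependence affects the fit. Nothing says that the pools came from separate cultures, so p-values measure only the spread between these arrays. With 1 residual degree of freedom, that spread holds noise together with any dependence of the age difference on diet. The SEs and p-values therefore reflect both. Genes printed in full were at least 2-fold apart in a pair or had the highest mean signal of their role, a ranking used for that choice alone, with others as examples. The genes, lists, tests and alternatives were chosen with earlier results of these data known. Alternatives were other scalings, floors, a pseudocount of 16, the mean over probe sets, other limma settings and leaving out each array. Python 3.11.15 with pandas 2.3.3 and numpy 2.4.6 was used.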

Additional observations from a re-analysis of the deposited data

Results flagged for a closer look

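Effects with opposite signs in the 2 diets or at the 2 ages, each larger than the prior SD of 0.20 in limma, were found for 3 of the 35 genes measured on 2 arrays or more. None of these differences was tested, since each group had 1 array. The share of all genes with such opposite signs past that SD was not counted. The age difference of Muc68E was 0.30 with curcumin and -1.39 without it. The curcumin difference of verm was -0.25 in old and 0.89 in young flies. That of Gasp was -0.40 in old and 0.33 in young flies.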

How the results depend on the processing

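No paired analysis was possible because each group had 1 array and the labels carry no replicate numbers. Of 19 differences of at least 2-fold, 13 stayed so under all 8 alternative scalings, floors and probe set rules, 6 did not under at least 1, and 0 changed sign. Floor settings cannot move a difference between signals above every floor, nor the mean over probe sets a gene with 1 probe set. With the floor at the 25th percentile, 5 genes were lower with age without curcumin (against 3). With that floor 3 were higher and 1 lower with curcumin in young flies (against 0 and 0), and 4 were higher in old flies (against 2). Over all genes, 1268 of 11082 were lower with age without curcumin, against 952 of 9712. With curcumin in young flies 162 were higher and 179 lower of 11135, against 38 and 39 of 9764. In old flies 739 of 11010 were higher with curcumin, against 500 of 9611. Without a floor, 4 of the members were higher with curcumin in old and 2 in young flies. Over all genes these counts were 666 of 9611 and 103 of 9764. With the floor at the 60th percentile, 3 members were lower with age on curcumin food (against 5). In old flies 1 was then higher and 1 lower with curcumin (against 2 and 2). Over all genes 155 of 6807 were lower with age on curcumin food, and 263 higher and 69 lower of 6719 with curcumin in old flies. A pseudocount gave 1 member higher with curcumin in old flies, and 332 of 9611 over all genes. Quantile normalization gave 1 member higher with curcumin in young flies (serp, 1.00), and 41 of 9647 over all genes. The mean over probe sets gave 2 members higher with age on curcumin food (against 1), with Idgf3 added at 1.39, and 276 of 9754 over all genes. Centring on array medians moved the median of all genes for age without curcumin to 0.18, in place of -0.02, and Cht11 to 1.02 there. It moved the members called by limma for age to 9, with 0 members called otherwise. Over all genes, limma with the floor at the 60th percentile called 8 of 6685 for age, and 0 members. Centring also moved the higher share of all genes at least 2-fold apart with age without curcumin to 52.0%, in place of 30.1%, and with curcumin in old flies to 67.0%, in place of 80.6%. Without rescaling the share was 69.6% for age with curcumin, in place of 53.3%, and 33.3% for curcumin in young flies, in place of 49.4%; the floor at the 60th percentile gave 65.2% there. Without a floor, obst-A was at -2.70 and obst-H at 5.59 for age without curcumin. The signs of the 6 Idgf genes with age on both diets and with curcumin in old flies held under the 3 other scalings. So did those of serp, verm and the 7 obstructor or peritrophin genes with curcumin in young flies. The floor and pseudocount settings could not change the Idgf signs, and the mean over probe sets bears on Idgf3 alone. Leaving out 1 array leaves 1 intact pair per factor, so it gave the medians of single pairs over the genes tested in limma. These were 0.15 or 0.21 for age and 0.03 or 0.16 for curcumin, and are no separate check. The cause of these shifts was not tested beyond the rules themselves.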
